A study of Arabidopsis thaliana with 12 samples.

Results

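AT1G22810, AT1G19210 and AT2G44940 encode transcription factors of the ERF/DREB family in Arabidopsis thaliana, and their transcript levels were followed across a factorial design of wounding and light. The 3 genes were picked from earlier results of these arrays. AT1G22810 and AT1G19210 were, by inference, picked for large wound differences and AT2G44940 for a large difference between light and dark, since the choice itself does not name its contrasts. Each is read by its single probe set, so they are 3 of 13350 genes to which the annotation gives a probe set of their own. The values that chose them are therefore given below as a description, and tests are kept to contrasts that the choice, so inferred, did not use.

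Proteins of the ERF/DREB family carry an AP2 DNA-binding domain, which reads short GC-rich elements in promoters. DREB proteins are best known for binding the dehydration-responsive element and related ERF proteins for binding the GCC box, an element of ethylene and jasmonate responses. Many genes of the family are transcribed within minutes of touch, wounding, cold or drought and are shut off again soon after, while others follow light or development. In the usual division of the family AT1G22810 and AT1G19210 belong to DREB subgroup A-5, and AT2G44940 belongs to the branch that holds subgroups A-1 and A-4.

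The 12 arrays fell into 4 groups of 3, one array of each group from each of 3 replicate experiments. Intact and wounded rosettes stood at 22 °C in darkness or under light of 250 µmol m-2 s-1. After 30 min in these conditions the leaves of the wounded plants were crushed with a haemostat, under a dim safelight for the dark group, and whole rosettes were frozen 60 min later. The treatment of wounded dark replicate 2 is given by initials alone, so its group rests on the sample title. Each array carried 1 extract of total RNA pooled from 15 to 17 plants grown in days of 10 h light and 14 h dark. The labels used here give no ecotype and no age at treatment. Rosettes sampled ahead of these periods are not among the groups, so a level higher in the light cannot be told from one lower in the dark.

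Values are the authors' GCRMA values on the log2 scale, so that a difference of 1 is a doubling, and the median of an array lay between 5.40 and 5.60. A probe set was tested where it reached log2 4 on at least 3 arrays, which 13567 of 22810 did. Values below log2 4 are close to the background of these arrays, and their order carries little information. All 3 genes passed this filter, AT1G19210 through wounded rosettes alone. AT1G22810, with only 2 intact arrays at this level, both in the dark, would not have passed without its wounded arrays. As a check on the tissue, 4 of 10 listed leaf markers had a probe set, and they stood at mean log2 values between 14.6 and 14.9 on every array. Of 8 listed root markers 4 had a probe set, and 3 of these stayed below log2 4, while PYK10, a root beta-glucosidase, was at 6.70 to 9.39. No probe set was named for 8 listed flower and seed markers. In whole rosettes, a change in the share of cells of a type and a change in the RNA per cell cannot be told apart. The array's 25S rRNA control read 9.37, 10.67 and 8.82 in the intact dark arrays (replicates 1 to 3) and between 6.34 and 8.46 on the other 9.

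AT1G22810 was near background in intact rosettes in the light and bright in wounded rosettes under both conditions. Its log2 values were 2.42, 2.16 and 3.13 in intact rosettes in the light and 9.83, 9.93 and 9.45 in wounded ones (replicates 1 to 3). In the dark they were 2.43, 6.31 and 6.17 in intact rosettes and 9.90, 9.92 and 10.04 in wounded ones. Wounded and intact arrays did not overlap in the light or in the dark, and the 6 wounded arrays lay between 9.45 and 10.04.

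The wound difference in AT1G22810 was 7.16 ± 0.79 in the light (log2 difference ± SE from limma, n = 3 arrays a group), rank 1 among the rises of the 13567 probe sets tested. With group means below log2 4 set to 4, it is at least 53.3-fold and ranks 3. In the dark the difference was 4.98 ± 0.79, or 31.6-fold, rank 6 among the rises. By experiment it was 7.40, 7.77 and 6.32 in the light, and 7.47, 3.61 and 3.86 in the dark. The gap between them, light minus dark, was 2.18 ± 1.12, and by experiment -0.07, 4.16 and 2.45. In experiment 1 the wound differences were thus nearly equal, and in the other two that in the dark was the smaller. The experiment that differs is the one whose intact dark array was as low as the intact light arrays. With the intact light mean set to log2 4, the wound differences were 5.74 in the light and 4.98 in the dark. Much of the gap of 2.18 thus rests on background values.

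In order of level the groups of AT1G22810 ran from wounded in the dark (9.95 ± 0.07, SD, n = 3) through wounded in the light (9.74 ± 0.25) and intact in the dark (4.97 ± 2.20) to intact in the light (2.57 ± 0.50). The wounded groups overlapped between light and dark, with a difference of -0.22 ± 0.79, and so did the intact groups, through dark replicate 1. The light effect in intact rosettes was -2.40 ± 0.79, with -0.0031 in experiment 1, -4.15 in experiment 2 and -3.04 in experiment 3. With the intact light level, which is background, set to log2 4, this light effect was -0.97.

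**Figure D1:**
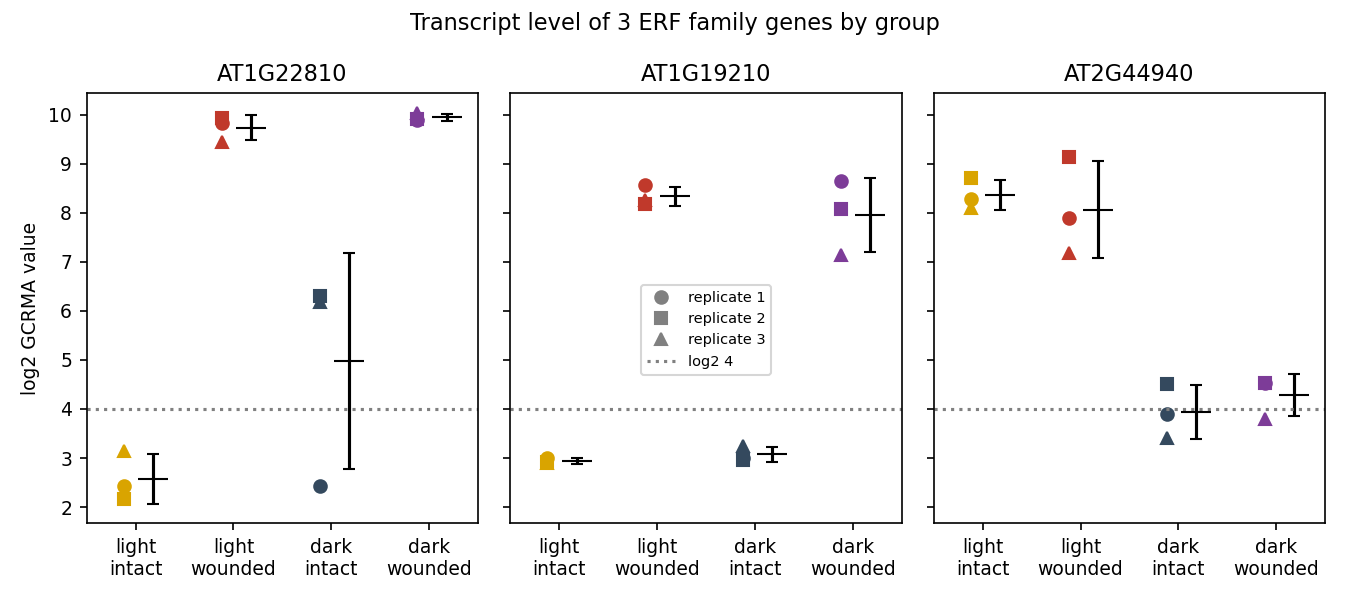
Log2 GCRMA value (y axis) of the 3 ERF family genes in the 4 groups (x axis), with a symbol for each replicate, bars for the mean ± SD (n = 3) and a dotted line at log2 4. AT1G22810 and AT1G19210 are high in all 6 wounded arrays, AT2G44940 in all 6 light arrays, and intact dark replicate 1 of AT1G22810 (2.43) lies far below replicates 2 and 3 (6.31 and 6.17).

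Intact dark replicate 1 stood apart for other genes too. It lay at least 2 log2 units below both other arrays of its group for 54 of the tested probe sets, against 2 to 21 for each of the other 11 arrays within their own groups (the gap of 2 was set after the values were seen). Of these 54, 42 (77.8%) were among the probe sets raised by wounding in the light, a contrast measured on other arrays, while 8.48% of all tested probe sets were raised there. The 25S control of this array lay between those of replicates 2 and 3. What set replicate 1, or replicates 2 and 3, apart was not tested.

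Because AT1G22810 was chosen from its wound differences, the average light effect, which takes equal parts of intact and wounded rosettes, was the contrast that could be tested. It was -1.31 ± 0.56, with a 95% interval from -2.54 to -0.08, and did not pass limma's test (adjusted p = 0.0906 over all tested probe sets, of which 36.2% passed in this contrast). With the replicate block the adjusted p was 0.0624. By experiment the effect was -0.04, -2.07 and -1.81. Leaving out intact dark replicate 1 gave -1.94 with a limma adjusted p of 3.34e-05, and leaving out all 4 arrays of experiment 1 gave -1.94 with 0.00207. Both omissions take out the array that was singled out for its low value, and leaving out experiments was added after the data were seen. Neither adjusted p is therefore an independent test of the light effect. Intact dark replicate 1 decides the call, and without it the wound difference in the dark was 3.71, the light effect in intact rosettes -3.67 and the gap between the wound differences 3.45. Every intact light array was below log2 4, so the sizes of the average light effects, of -3.67 and of 3.45 depend on background values. With the intact light mean set to log2 4, the light effect in intact rosettes over all arrays was -0.97.

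AT1G19210, of the same DREB subgroup, was near background in every intact array and bright in every wounded one, with no light effect detected. Its log2 values in the light were 3.01, 2.91 and 2.91 in intact rosettes and 8.56, 8.18 and 8.27 in wounded ones. In the dark they were 3.01, 2.97 and 3.25 in intact rosettes and 8.65, 8.07 and 7.14 in wounded ones. All 6 intact arrays were below log2 4 and all 6 wounded arrays above 7, with no overlap.

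The wound difference in AT1G19210 was 5.40 ± 0.30 in the light (rank 13 among rises) and 4.88 ± 0.30 in the dark (rank 7). With the intact levels set to log2 4 these are at least 20.2-fold and at least 15.5-fold, and with this floor for all probe sets the ranks are 32 and 14. By experiment the differences were 5.56, 5.27 and 5.36 in the light and 5.64, 5.11 and 3.89 in the dark, so that the spread was wider in the dark, where wounded replicate 3 was lowest. The gap between them was 0.52 ± 0.42, and by experiment -0.09, 0.17 and 1.48. In order of level, wounded in the light (8.34 ± 0.20, SD) was followed by wounded in the dark (7.95 ± 0.76), intact in the dark (3.08 ± 0.15) and intact in the light (2.94 ± 0.06), and the neighbours within each pair overlapped.

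The average light effect in AT1G19210 was 0.13 ± 0.21, with a 95% interval from -0.33 to 0.59 (limma adjusted p = 0.665, and 0.605 with the replicate block). The interval bounds this average alone, and the intact part of it is close to background, where a light effect can hardly show. In wounded rosettes the light effect was 0.39 ± 0.30, and by experiment -0.08, 0.11 and 1.13. Intact dark replicate 1, so low for AT1G22810, was in the middle of its group here, but all 3 arrays of that group were below log2 4.

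AT2G44940 was the reverse, bright in the light and dim in the dark, with no wound effect detected. Its log2 values in the light were 8.28, 8.71 and 8.11 in intact rosettes and 7.90, 9.13 and 7.18 in wounded ones. In the dark they were 3.90, 4.51 and 3.41 in intact rosettes and 4.53, 4.53 and 3.79 in wounded ones. The 6 light arrays and the 6 dark arrays did not overlap, and the lowest light array was wounded replicate 3.

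In intact rosettes the light level of AT2G44940 exceeded the dark level by 4.42 ± 0.44, a fold of at least 20.6 when the latter is set to log2 4 (rank 7 among 13567). In wounded rosettes, on 6 other arrays, the difference was 3.78 ± 0.44, or 13.8-fold (rank 6). With the floor at log2 4 for all probe sets the ranks are 3 and 5. By experiment the light effects were 4.38, 4.20 and 4.69 in intact and 3.37, 4.60 and 3.38 in wounded rosettes. In order of level, intact in the light (8.37 ± 0.31, SD) and wounded in the light (8.07 ± 0.99) were followed by wounded in the dark (4.29 ± 0.43) and intact in the dark (3.94 ± 0.55), and light and dark pairs each overlapped between wounded and intact. When the fit included the 25S control, a choice made with the values in view, the light effect in intact rosettes was 5.87 and that in wounded rosettes 3.92.

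The average wound effect in AT2G44940, the contrast its choice did not use, was 0.02 ± 0.31, with a 95% interval from -0.67 to 0.71 (limma adjusted p = 0.971, where 21.6% of tested probe sets passed). With the replicate block the adjusted p was 0.931. By experiment it was 0.12, 0.22 and -0.28. The single wound effects were -0.30 ± 0.44 in the light and 0.34 ± 0.44 in the dark, with a gap of -0.64 ± 0.63. Replicates moved together across groups for this gene: number 2 was the highest in 3 groups and level with number 1 in the other, and number 3 was the lowest in all 4. The SE of its wound and light effects was 0.44 without the replicate block and 0.24 with it.

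**Figure D2:**
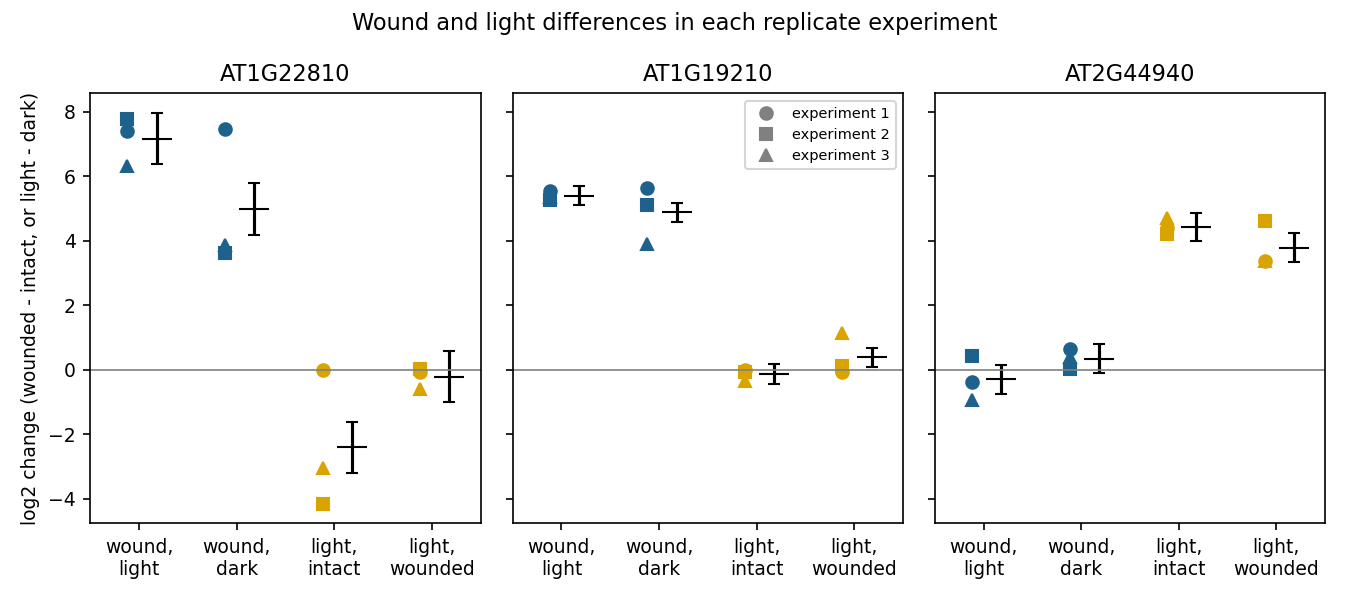
Log2 differences (y axis) of the 3 genes between wounded and intact rosettes in the light and in the dark, and between light and dark in intact and in wounded rosettes (x axis), with a symbol for each replicate experiment and bars for the limma estimate ± SE. The wound difference of AT1G22810 in the dark is 7.47 in experiment 1 and 3.61 and 3.86 in the others, while AT2G44940 lies near 0 for wounding and between 3.37 and 4.69 for light.

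To place the 3 genes in their family, a list of 137 other loci of the AP2/ERF family was read on the same arrays. Of these, 42 had a probe set of their own and 21 passed the brightness filter, which admits a gene that is bright in 1 group alone. Some of the 21, such as AT1G33760 and AT5G52020, passed through their wounded arrays alone, so their rises helped to admit them. Wounding in the light raised 10 of the 21 and lowered 3, with a median change of 1.50 against -0.15 over all tested probe sets, where limma called 14.9% (8.48% higher and 6.37% lower). Wounding in the dark raised 10 and lowered none of the 21, with a median of 0.71 against -0.08, where 8.12% were called (5.84% higher and 2.28% lower). With the replicate block 12 rose and 5 fell in the light, against 27.3% of all tested probe sets called (11.5% higher and 15.8% lower). In the dark 10 rose and 2, AT5G07580 and AT5G61590, fell with the block, against 15.1% called (9.08% higher and 5.98% lower). Leaving out experiment 2 lowered the list's calls to 8 in the light and 6 in the dark. Calls over all tested probe sets fell as well when an experiment was left out, from 2015 to between 789 and 1216 in the light. In the dark they fell from 1102 to between 396 and 471.

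Among the other A-5 genes, the jasmonate-related factor ORA47 rose by 3.09 ± 0.42 in the light and 2.89 ± 0.42 in the dark (limma adjusted p = 5.86e-04 and 0.00215). AT1G77640 rose by 1.70 ± 0.34 and 2.02 ± 0.34. AT1G44830, the other tested gene of the subgroup, was called in neither, with 1.59 ± 0.72 and 0.20 ± 0.72, though the block brought the former past the threshold (limma adjusted p = 0.00531). All of these A-5 wound differences are smaller than those of AT1G22810 and AT1G19210, which were picked for their size.

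Of 8 tested genes in the A-1 and A-4 branch, to which AT2G44940 belongs, 5 rose on wounding in the light, 4 of them also in the dark. AT1G33760 rose by 4.11 ± 0.24 and 3.69 ± 0.24 (limma adjusted p = 4.32e-06 and 1.48e-05), from 2.33 ± 0.01 to 6.44 ± 0.55 in the light and from 2.80 ± 0.14 to 6.49 ± 0.25 in the dark (SD, n = 3). Its intact levels are background, and with them set to log2 4 its rises were 2.44 and 2.49, against 2.97 and 2.24 for AT5G52020 treated alike. AT5G52020 rose by 3.60 ± 0.22 and 2.64 ± 0.22, AT4G32800 by 2.42 ± 0.20 and 2.05 ± 0.20, and AT3G60490 by 1.81 ± 0.29 and 1.19 ± 0.29. With intact means set to log2 4 the rises of AT3G60490 were 1.14 and 1.00. The stress factor TINY, listed as tny, rose in the light (1.99 ± 0.35, or 1.24 with its intact mean set to log2 4). In the dark its change was 0.71 ± 0.35 and was not called. Falls in the light were those of AT4G16750 (-1.17 ± 0.21) and TINY2 (-0.91 ± 0.23). With its wounded mean set to log2 4, the change of TINY2 was -0.27.

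In subgroup A-6, 2 of 3 tested genes rose under both conditions. AT4G28140 rose by 3.83 ± 0.37 in the light and 2.85 ± 0.37 in the dark, and AT1G64380 by 2.98 ± 0.48 and 2.81 ± 0.48. In the A-2 and A-3 branch AT1G75490 rose in the dark alone (1.65 ± 0.42, against 0.06 ± 0.42 in the light, a gap that was not called). Its wounded and intact arrays overlapped in the dark, and with the intact mean set to log2 4 its rise there was 0.95. In the ERF branch AT2G33710 rose by 1.50 ± 0.42 in the light and 2.85 ± 0.42 in the dark, with group means below log2 4 on both sides in the light. With the intact mean set to log2 4, its rise in the dark was 1.39. AT5G07580 fell in the light (-1.38 ± 0.41, limma adjusted p = 0.0416). In the dark it was lower by as much (-1.43 ± 0.41, limma adjusted p = 0.0558), and there the call was made with the replicate block (0.00198).

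Of the 10 genes raised in the light and the 10 raised in the dark 9 were shared, which is 90% of each set. The same share among all probe sets raised in the light (1151) and in the dark (792) was not counted, so 90% has no background here. Every raised gene rose in all 3 experiments, which adds no support, since the same experiments made the calls. Of the 11 genes raised under either condition 4 had all 3 intact dark arrays at log2 4 or above, and in all 4 of these replicate 1 was the lowest, which it was for 28.1% of the tested probe sets with this brightness. For AT4G28140, one of the 4, replicate 1 read 4.10 against 5.09 and 5.53. AT1G64380 is not among the 4, as its replicate 1 read 3.68, below log2 4, against 5.55 and 5.39. With any 1 of the 12 arrays dropped in turn, 8 to 12 list genes were called for wounding in the dark.

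**Figure D3:**
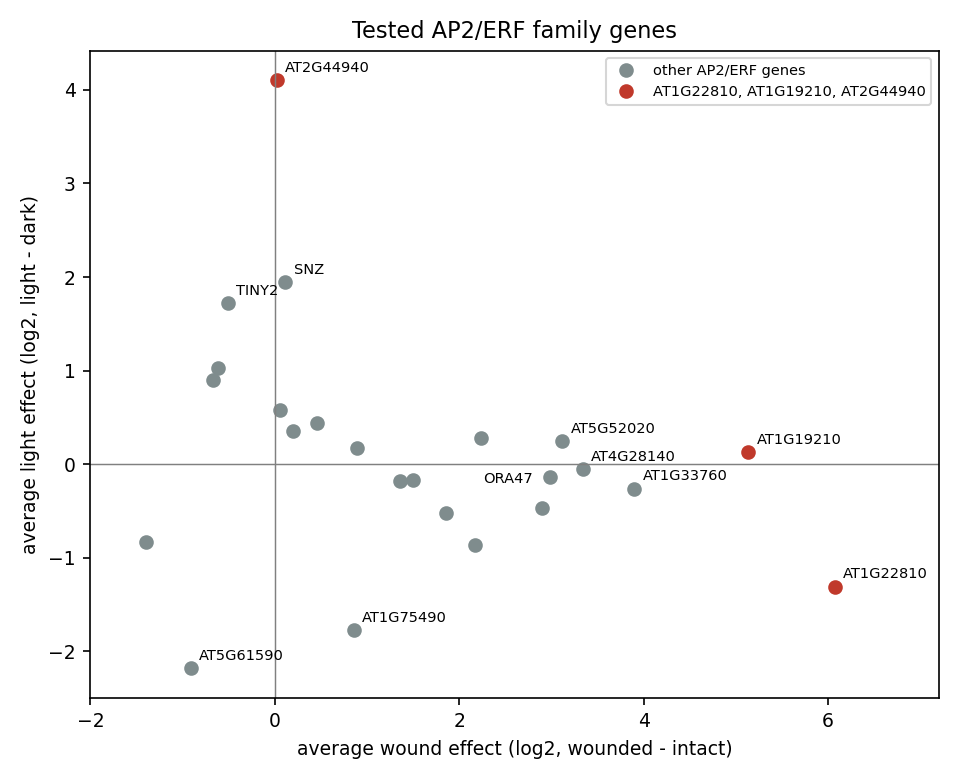
Average wound effect (x axis, log2, wounded minus intact over light and dark) and average light effect (y axis, log2, light minus dark over intact and wounded) of the 3 genes and the 21 other tested AP2/ERF genes, 1 point each. AT1G22810 and AT1G19210 lie farthest right, at 6.07 and 5.14, and AT2G44940 highest, at 4.10, followed by SNZ at 1.95.

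In intact rosettes 4 of the 21 other genes were higher in the light and 1 lower, where limma called 23.2% of all tested probe sets (12.3% higher and 10.9% lower). In wounded rosettes 3 were higher and 3 lower, where 12.3% were called (4.86% higher and 7.42% lower). These shares of the list, 23.8% and 28.6%, are to be read against those backgrounds, and the first is close to it. With the replicate block 8 were called in intact rosettes, against 40.7%, and 10 in wounded ones, against 28.9%. Without experiment 2 or 3 the calls in wounded rosettes were 2 and 3. Calls over all tested probe sets there fell too with an experiment left out, from 1666 to between 431 and 941.

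SNZ, an AP2-type repressor of flowering, was higher in the light by 2.03 ± 0.28 in intact and 1.86 ± 0.28 in wounded rosettes (limma adjusted p = 5.87e-04 and 0.00183), and so resembled AT2G44940 with a smaller difference. TINY2, of the same branch as AT2G44940, was higher by 2.12 ± 0.23 and 1.32 ± 0.23, the latter between group means that both lie below log2 4. With its dark mean in intact rosettes set to log2 4, TINY2 was higher there by 0.27. It stood at 4.27 ± 0.19 in intact and 3.36 ± 0.47 in wounded rosettes in the light (SD, n = 3), and no dark array exceeded 2.53. Opposite to these, AT5G61590, known as DEWAX and a repressor of cuticular wax synthesis, was lower in the light, with changes of -2.27 ± 0.35 and -2.09 ± 0.35. In intact rosettes its level was 13.33 ± 0.20 in darkness and 11.06 ± 0.76 in light. AT1G75490 was lower in the light in wounded rosettes (-2.56 ± 0.42), at 4.95 ± 0.53 in the dark and 2.39 in the light, which is background.

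Over both wounding states 5 of the 21 other genes were higher in the light and 4 lower, and over both light states 10 rose on wounding and 4 fell, where 36.2% (19% higher and 17.3% lower) and 21.6% (10.9% higher and 10.7% lower) of all tested probe sets were called. AT1G22810 and AT1G19210, tested only for the first of these contrasts, and AT2G44940, tested only for the second, were not called. Of the 11 genes raised by wounding, none was called for light in intact rosettes and 2, AT1G75490 and AT2G33710, in wounded ones, both lower in the light. Over all tested probe sets 23.2% were called in intact and 12.3% in wounded rosettes, so these counts are too small to set apart. Several of the 11, such as AT1G33760 and AT5G52020, had both intact means below log2 4, where a light effect can hardly show. With the replicate block AT1G75490 was also called in intact rosettes (limma adjusted p = 0.0496), which made 1. In wounded rosettes AT1G77640, lower in the light (-0.68, limma adjusted p = 0.0189), and AT5G52020, higher (0.72, limma adjusted p = 0.0161), joined with the block, which made 4. With the block 40.7% of all tested probe sets were called in intact and 28.9% in wounded rosettes.

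No gene of the list was called for the wound by light interaction by limma, with or without the replicate block. At an unadjusted p under 0.05 there were 6 without the block and 7 with it, and over all tested probe sets 2 were called (0.0147%) and 5 with the block (0.0369%). The interaction had the largest error of all contrasts, with a median SE of 0.29 against 0.21 for a single wound effect. The gaps of 2.18 ± 1.12 in AT1G22810, 0.52 ± 0.42 in AT1G19210 and -0.64 ± 0.63 in AT2G44940 are therefore given without a test. Much of that in AT1G22810 rests on its background level in intact light rosettes.

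The genes whose levels ran most nearly parallel to each of the 3 were found among 7196 others by the root mean square difference between log2 values over the 12 arrays, each gene centred on its own mean. For AT1G22810 the nearest were AT5G12340 (difference 0.93), AT2G22880 (1.06), CML37 (1.07), a calmodulin-like calcium sensor, AT3G02840 (1.105) and AT4G29780 (1.11). All 5 were lowest in intact dark replicate 1 within that group, at 4.95 against 8.55 and 7.36 for AT5G12340, and at 3.65 against 5.80 and 5.89 for CML37. Likeness over the same 12 arrays chose these genes, so that sharing this array's low level is no independent evidence. AT5G12340 also shared the lower level in the light, with -2.97 in intact rosettes, and none of the 5 reached the wound difference of AT1G22810 in the light (4.72 to 5.54 against 7.16). That excess rests largely on the background level of AT1G22810 in intact light rosettes. With this level set to log2 4 its difference is 5.74, close to the 5.54 of AT5G12340, whose intact light mean was 3.98.

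The genes nearest to AT1G19210 were nearer than those of AT1G22810. They were AT2G22760 (0.48), AT3G53600 (0.50), AT2G14290 (0.57), AT5G52050, the efflux carrier DTX50 (0.62), and AT3G43250 (0.65). Their wound differences ran from 4.47 to 6.45 in the light and from 4.13 to 5.90 in the dark, and all 5 had mean levels below log2 4 in both intact groups. AT1G19210 itself was 14th in nearness to AT1G22810 (difference 1.36, rank 14), and AT1G22810 ranked 61 in nearness to AT1G19210.

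AT2G44940 was nearest to AT5G01790 (0.73), AT1G66540 (0.84), AT1G76240 (0.85), AT3G52740 (0.87) and AT3G44450 (0.88). These 5 were higher in the light by 2.98 to 4.34 in intact and by 2.18 to 3.93 in wounded rosettes. All 5 also had lower means in wounded than in intact rosettes in the light, by -0.78 to -1.62, against -0.30 ± 0.44 for AT2G44940. They were found by likeness to AT2G44940, so their light effects carry no independent evidence.

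**Figure D4:**
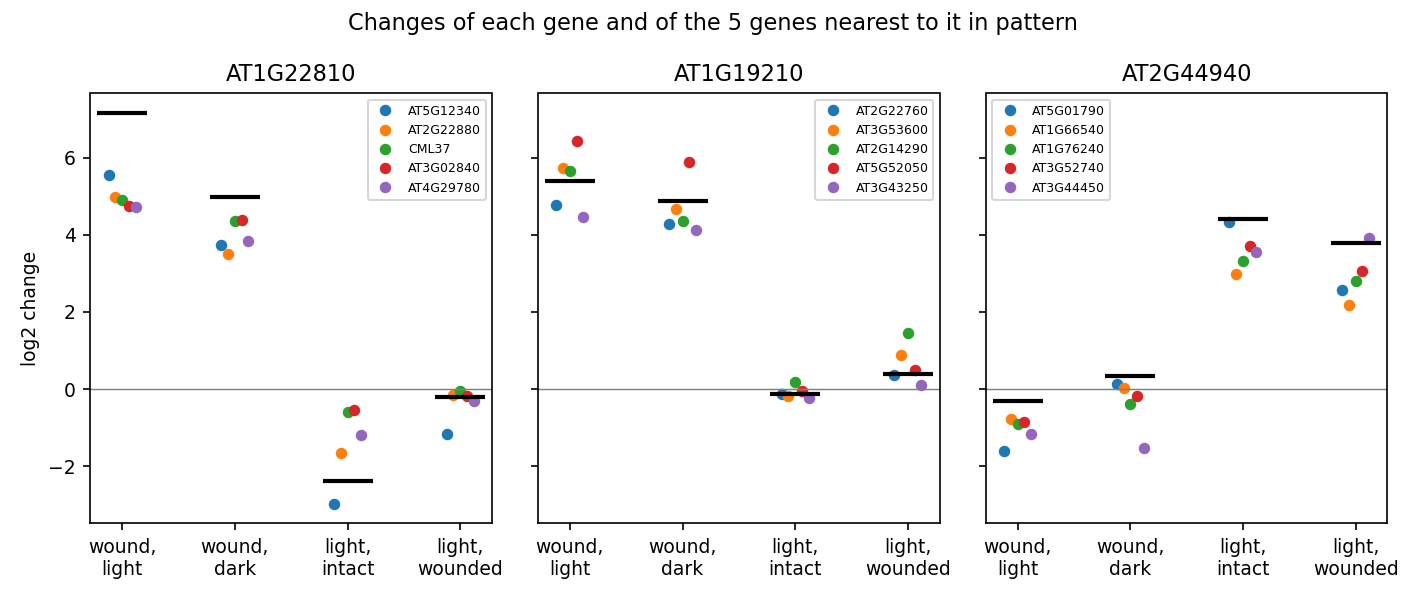
Log2 changes (y axis) on wounding in the light and in the dark and of light against dark in intact and wounded rosettes (x axis) for each ERF family gene (black bars) and the 5 genes nearest to it in pattern (points). AT1G22810 exceeds its neighbours on wounding in the light (7.16 against 4.72 to 5.54), and the neighbours of AT2G44940 lie below it on wounding in the light (-0.78 to -1.62 against -0.30).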

How the data were processed

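Transcript levels were measured on 12 Affymetrix arrays of Arabidopsis rosettes. The deposited values are GCRMA values on the log2 scale, made by the authors per the submitters' processing notes, which give no version. Aligner, genome build and detection calls are not given in the sources used here. Of 22810 probe sets (64 controls), 13513 had a single gene, 503 several and 8730 none in the platform annotation. All but 5 single-gene probe sets were matched to RefSeq loci, and a gene with several probe sets was read by the brightest. Background correction by GCRMA pulls dim probe sets to a floor, which compresses fold changes that start below it.

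Limma 3.58.1 in R 4.3.3 fitted 1 mean per group over all 12 arrays (residual df 8, prior df 3.19), two-sided, with Benjamini-Hochberg adjustment over 13567 tested probe sets (log2 of at least 4 on at least 3 arrays). A call is an adjusted p under 0.05. Average light and average wound effects are orthogonal to the contrasts inferred to have chosen the genes they were tested in. Floored changes set group means below log2 4 to 4. The script recovered known changes in simulated data, whose arrays were independent, so the pairing by experiment was not covered. P-values measure the spread between pooled extracts of 3 experiments.

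The series description says that each experiment held all 4 treatments, so replicate numbers pair the arrays. After removing group means, same-numbered arrays (18 pairs) correlated across probe sets at r of 0.30 to 0.76, and other pairs at -0.47 to -0.07. The planned fit has no block, and the fit with it is an alternative.

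The 3 genes, the family list and the markers were chosen with earlier results of these data known. Genes named are the 3, the 5 nearest in pattern to each, and per contrast the 3 called list genes with the largest change. Other list genes (AT1G77640, AT1G44830, AT4G32800, AT3G60490, TINY, AT4G16750, AT1G64380, AT2G33710 and AT5G07580) were named after their values were seen. Subgroups follow the usual family division. Alternatives were the replicate block, the brightness filter, normalization, variance trend, array weights, and each array left out. The 25S covariate and leaving out each experiment were added after the data were seen. A planned search for promoter motifs was not run, because no promoter sequence was used here.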

Additional observations from a re-analysis of the deposited data

Results flagged for a closer look

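AT5G52020, a family gene raised by wounding, had light effects of opposite sign in intact and wounded rosettes, neither of them called without the replicate block. Its light effect was negative in all 3 experiments in intact rosettes, with a mean of -0.23, and positive in all 3 in wounded rosettes, with a mean of 0.72. The gap between them is the wound by light interaction, 0.96 ± 0.31, which did not pass limma's test (adjusted p = 0.999). All intact arrays of the gene were below log2 4, so the sign in intact rosettes rests on background values.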

How the results depend on the processing

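Of 345 values of the 3 genes recomputed under 23 alternative settings, 19 of them planned, 340 moved by less than the spread between replicates, and 13 of 15 values kept their sign in every setting. The exceptions in sign were the wound difference of AT2G44940 in the light and the light difference of AT1G19210 in wounded rosettes. Much of this agreement was fixed in advance, since the replicate block, the brightness filters and the variance trend cannot change these estimates. Nor can leaving out an array outside the groups compared. For AT1G22810 the spread was wide (SD 2.16 over experiments for wounding in the dark), so 3.71 in place of 4.98 counted as unmoved. With the 25S control as a covariate AT2G44940 had a wound difference in the dark of 1.60, a light effect in intact rosettes of 5.87 and an interaction of -1.95, and 3 list genes were called for light in intact rosettes. The cause was not tested.

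The average light effect of AT1G22810 ran from -1.94 to -0.93 with an array or an experiment left out (-1.94 to -0.97 for single arrays), and passed the threshold without intact dark replicate 1 or experiment 1. That of AT1G19210 ran from -0.0775 to 0.30, turning negative without wounded dark replicate 3 and, at -0.0069, without experiment 3. The average wound effect of AT2G44940 ran from -0.24 to 0.25 (-0.029 without experiment 1 and -0.0764 without experiment 2), and its light effect in intact rosettes from 4.16 to 4.71.

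With the replicate block, which pairs the arrays of an experiment, 8 list genes were called for light in intact and 10 in wounded rosettes. It changed no call of the 3 genes. The block gave 3699, 2043, 5516 and 3922 called probe sets for wounding in the light, in the dark, light in intact and light in wounded rosettes, against 2015, 1102, 3147 and 1666 without it. A filter of log2 6 on 3 arrays, which tests fewer genes, left list calls of 8 for wounding in the light, 2 and 3 for light in intact and wounded rosettes, 3 for average light and 9 for average wounding. Left-out arrays or experiments gave list calls of 8 to 13 for wounding in the light, 6 to 12 in the dark and 2 to 6 for light in wounded rosettes. With an experiment left out, calls over all tested probe sets also fell, to 789 to 1216, 396 to 471 and 431 to 941 in these contrasts. The filter also left 3 calls of named list genes untested, TINY2 for light in intact rosettes and AT1G75490 for light in wounded rosettes and on average. Of the other 411 recomputed calls 406 held and 5 fell short of the threshold, none turning direction. These were DEWAX (AT5G61590) for light in intact rosettes with the 25S covariate (-2.004, limma adjusted p = 0.0745) and in wounded ones without experiment 2 (-2.07, 0.0606) or 3 (-2.08, 0.0564), AT1G75490 for light in wounded rosettes without experiment 2 (-2.34, 0.0986), and ORA47 for wounding in the dark without experiment 1 (2.48, 0.0655). Levels below log2 4 limit the fold changes of AT1G22810 and AT1G19210.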
